A study of Brassica oleracea with 12 samples.

Results

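*Bo6g080750* is a gene of *Brassica oleracea* for which the deposited expression table gives no description, no GO term, no KEGG pathway and no enzyme number. It was found as the row that carries this gene name, 1 of 45325 rows. The row (locus MSTRG.21726) holds a single transcript, MSTRG.21726.1, which StringTie assembled from the reads, and no reference transcript. The reads of the row can therefore include sequence outside the annotated gene, and the name was not checked against a sequence. The gene was chosen by its FPKM, which differed between leaf stages in these same libraries, so its stage differences are described here without a test. Neither a sequence nor a position of the gene is given, because 0 rows of the RefSeq gene table used here match its name.

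Leaf RNA was sequenced from the double-haploid kale line 'JC007-2B', whose leaves turn white in the center after a period of cold while the margins stay green. There were 4 groups of 3 libraries each. S1 leaves, at the green leaf stage, were green throughout, and S2 leaves, at the albino stage, had begun to whiten in the center and still had a green margin, both taken without veins. At the variegated leaf stage the white center (S3_C) and the green margin (S3_S) were sampled separately. All groups share 1 genotype and the series used here has no green line beside it, an S2 library mixes white and green tissue, and cold, leaf age and leaf stage cannot be told apart between S1 and the later groups. In such bulk samples fewer cells of a type and less RNA per cell cannot be told apart either.

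Green leaves owe their color to chloroplasts, whose photosynthetic proteins are encoded partly by nuclear genes. When plastids fail to develop, leaf tissue stays pale and transcripts of these nuclear genes usually become scarce. Chilling separately induces well known sets of plant genes for cold tolerance, such as dehydrins and other protective proteins. No role in either process is recorded for *Bo6g080750* in the table, so nothing is known from it about the function of the product.

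The values are FPKM, that is fragments mapped to a gene corrected for transcript length and for the size of the library. FPKM summed to between 429278 and 461587 per library, and relative depth, estimated from the smallest differences among low FPKM and set to 1 in the first S1 library, lay between 0.902 and 1.35. The colors of the labels were visible in the data. Summed over the 110 genes annotated to photosynthesis, S1 libraries reached 16239 to 41669 FPKM, S2 libraries 4746 to 12872 FPKM, S3_C libraries 5451 to 6387 FPKM and S3_S libraries 24631 to 36119 FPKM. Library 3 of S2, at 12872 FPKM, stood apart from the other S2 libraries at 4746 and 5921 FPKM, and the first S1 library, at 41669 FPKM, from the other S1 libraries at 16239 and 18597 FPKM. Correlations between replicates across all genes, on log2(FPKM + 1), were lowest in S2, at 0.878 to 0.922, against 0.923 to 0.970 over the other groups, and genes are not independent replicates.

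*Bo6g080750* was high at the albino stage and in no other group. Its level was 41.9, 36.3 and 49.5 FPKM in the 3 S2 libraries, against 0.324, 0.632 and 0.523 FPKM in the S1 libraries. In the white center at the later stage it was back at 0.653, 0.995 and 0.354 FPKM, and in the green margin at 0.0619, 0.395 and 0.226 FPKM. Each S2 library lay above each of the 9 other libraries, and the lowest S2 value was 36.5 times the highest value outside S2. The name stage-induced holds for S2 and not for the variegated leaf stage, whose libraries overlapped with S1 in both sectors.

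**Figure D1:**
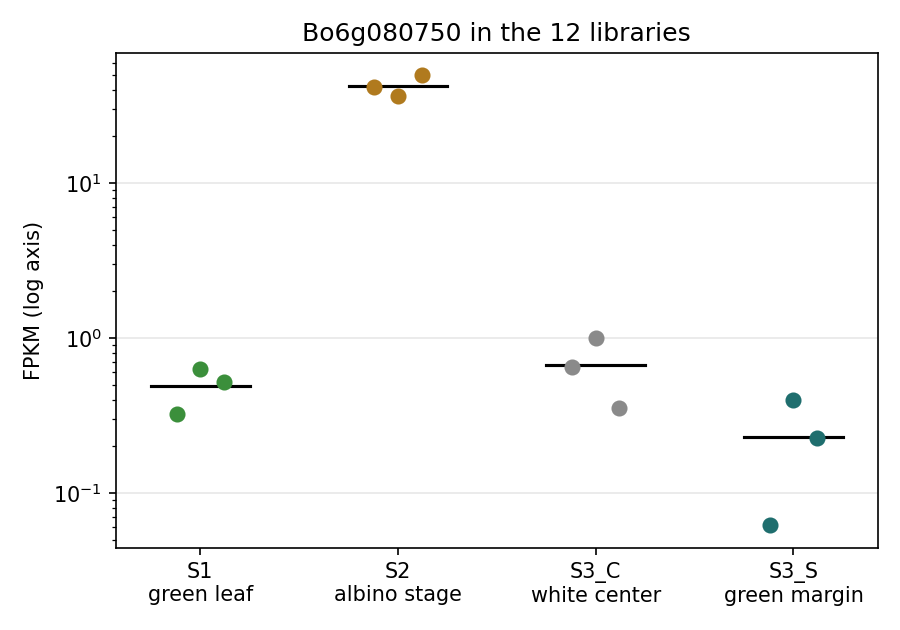
FPKM of *Bo6g080750* on a log axis in the 12 libraries, 1 point per library, with a black line at the mean of each group (n = 3). The S2 points lie between 36.3 and 49.5 FPKM, and the 9 other points lie between 0.0619 and 0.995 FPKM.

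The means were 0.493 ± 0.156 FPKM in S1, 42.6 ± 6.64 FPKM in S2, 0.667 ± 0.321 FPKM in S3_C and 0.228 ± 0.167 FPKM in S3_S (SD, n = 3 each). In order of level on unscaled FPKM the groups were S2, S3_C, S1 and S3_S. The last 3 of these did not differ beyond their spread, since the libraries of S3_C and S1, of S1 and S3_S, and of S3_C and S3_S overlapped. The S2 mean was 86.4 times that of S1 (SD of the ratio 30.5, propagated from both groups), 63.8 times that of S3_C (SD 32.2) and 187 times that of S3_S (SD 140). The low denominators made these ratios imprecise, and without the second S3_S library the ratio to S3_S was 295. After quantile normalization the ratio was 53.3 to S1 and 79.5 to S3_C, and after median-of-ratios scaling 59.1 and 72.7. On either scale the S1 mean thus lay above that of S3_C.

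The S2 level was high for the table as well as for the gene. By its mean FPKM *Bo6g080750* ranked 2057 of 45325 rows in S2 and was above 95.5% of them, whereas 42.7% of rows lay below it in S1, 38.5% in S3_C and 32.1% in S3_S. On log2(FPKM + 1) the difference of S2 over S1 was 4.86, the fourth largest of all rows. The difference of S2 over S3_S, 5.15, ranked 2 among all rows, and that of S2 over S3_C, 4.71, ranked 7. With a pseudocount of 0.1 in place of 1 the ranks were 7 against S1, 2 against S3_S and 12 against S3_C.

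Its replicates in S2 were also close to each other. The coefficient of variation was 15.6% over the 3 S2 libraries, and the highest was 1.36 times the lowest. Among the 3742 other rows with an S2 mean within 2-fold of its own, the median coefficient of variation was 33.2%, and 17.7% of these rows had a lower one. The third S2 library, which had the highest sum of photosynthesis transcripts of its group, also had the highest *Bo6g080750* level, at 49.5 FPKM, and without it the S2 mean was 39.1 FPKM.

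The sum of photosynthesis transcripts can be set beside the level of the gene in S2 and S3_C. The S3_C libraries, at 5451 to 6387 FPKM for the photosynthesis genes, lay within the range of the S2 libraries, at 4746 to 12872 FPKM. *Bo6g080750* was at or below 0.995 FPKM in each S3_C library and at or above 36.3 FPKM in each S2 library. S2 libraries mix white and green tissue of an earlier stage, and a link between this sum and the gene was not tested.

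To see how many genes were marked off at S2 in the same way, the lowest S2 value of each row was set against the highest value of the 9 other libraries. This criterion was chosen after the values of *Bo6g080750* were seen and is a description. Of the 20660 rows with at least 1 FPKM in every S2 library, 168 had all S2 libraries above all others. A gap of at least 2-fold was found for 7 rows, of at least 3-fold for 3 rows, of at least 5-fold for 2 rows and of at least 10-fold for 1 row, which was *Bo6g080750*. It was still the only row at 10-fold after median-of-ratios scaling and after quantile normalization. Leaving out S2 libraries, which loosens the criterion, gave 3 rows without the first, 4 without the second and 7 without the third, and leaving out the first S3_C library gave 2.

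**Figure D2:**
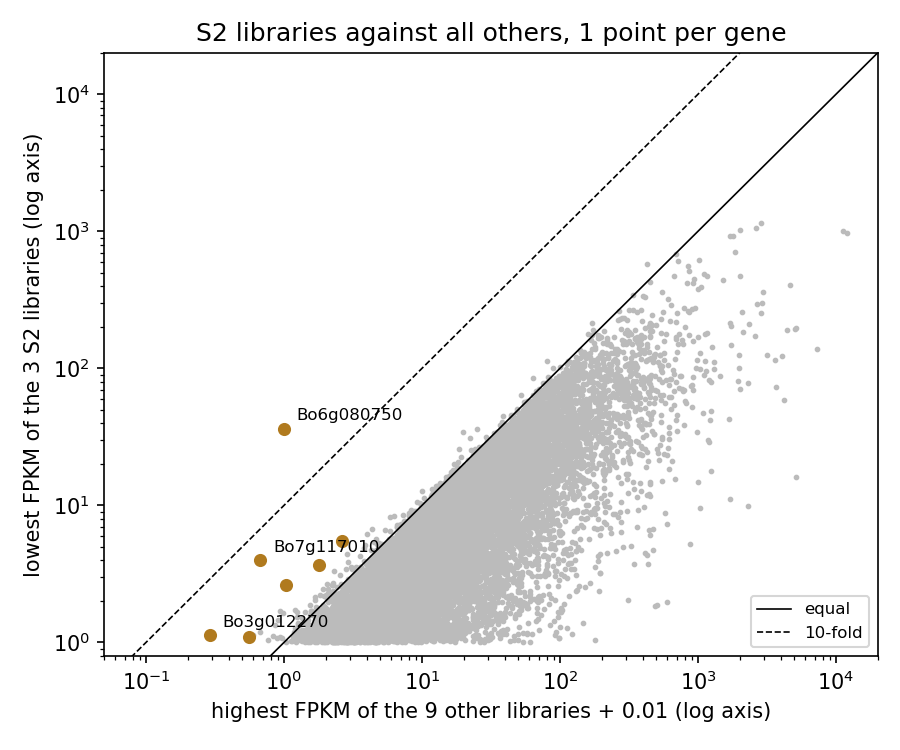
Lowest FPKM of the 3 S2 libraries against the highest FPKM of the 9 other libraries plus 0.01, both on log axes, for the 20660 rows with at least 1 FPKM in every S2 library. Brown points are the 7 rows with a gap of at least 2-fold, the solid line marks equal values and the dashed line a 10-fold gap, and *Bo6g080750* alone lies above the dashed line, at 36.3 against 0.995 FPKM.

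The row with the next widest gap was *Bo7g117010*, described as an arginine decarboxylase, an enzyme that makes agmatine for the synthesis of the polyamine putrescine. It had 31.7, 32.0 and 3.99 FPKM in S2. It is listed at 0 in the 3 S1 libraries, and its highest value elsewhere was 0.665 FPKM, in S3_S. *Bo3g012270*, annotated to oxidoreductase activity and calcium ion binding, followed with a gap of 4.03-fold, at 1.13 to 3.46 FPKM in S2 and at most 0.279 FPKM in the other libraries. The other 4 rows were *Bo3g003410*, *Bo3g004090*, MSTRG.35858 and MSTRG.36512, with gaps of 2.55-, 2.10-, 2.06- and 2.00-fold. Of these *Bo3g003410* is annotated to oxidoreductase activity and metal ion binding, and the others carry no GO term.

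Within the variegated leaf stage the sectors were compared, since the gene was not named for a difference between them. It was still chosen with earlier results of these libraries known, and no S3 value exceeded 0.995 FPKM, so the p-values are a description. *Bo6g080750* averaged 0.667 ± 0.321 FPKM in S3_C and 0.228 ± 0.167 FPKM in S3_S (SD, n = 3 each), and 8 of the 9 pairs of an S3_C with an S3_S library had the higher value in S3_C. The log2 fold change of S3_C over S3_S on log2(FPKM + 1) was 0.43 (standard error 0.18, unadjusted p = 0.0502 and adjusted p = 0.198 from limma with Benjamini-Hochberg adjustment over 42625 genes). In an exact two-sided permutation test p was 0.2, where 0.1 is the smallest that 3 libraries against 3 allow. Calls used the threshold of the study's methods, namely p below 0.05 before adjustment and a log2 fold change beyond 1 in either direction. The study applied it with Ballgown, not limma, and reported more genes higher in the green margin than in the center. By this threshold in limma *Bo6g080750* was not called, while 7.88% of all genes tested were, 5.2% as higher and 2.67% as lower in S3_C. Of the genes called, 66.1% were higher in S3_C on unscaled FPKM and 35.6% after median-of-ratios scaling. Over the 11 alternatives that gave a value the log2 fold change of *Bo6g080750* was 0.28 to 1.28 and the adjusted p from limma 0.107 to 0.446. The unadjusted p from limma ran between 0.0171 and 0.162 and was under 0.05 in 3 of them, without the third S3_C library (0.0171), with the replicate number as a block (0.0313) and without the second S3_S library (0.0415), each with a log2 fold change under 1.

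Markers of vein tissue moved between the same sectors. Of 6 markers sought by name, the table names *XCP1*, a xylem cysteine peptidase, and *IRX9*, a glycosyltransferase of secondary wall xylan. *XCP1* was at 4.16 to 7.54 FPKM in S3_C and at 0.847 to 2.20 FPKM in S3_S, and *IRX9* at 0.786 to 2.01 FPKM in S3_C and at 0.166 to 0.365 FPKM in S3_S. Both ranges overlapped between S2 and S1, where *XCP1* was at 4.62 to 8.18 FPKM in S2 and 3.87 to 7.502 FPKM in S1. *IRX9* was at 0.445 to 0.894 FPKM in S2 and 0.685 to 1.15 FPKM in S1. Although S1 and S2 leaves are described as taken without veins, both markers were higher there than in S3_S. The part of vein tissue in the sector values of *Bo6g080750* was not tested.

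The genes whose pattern was most like that of *Bo6g080750* were taken as the 8 with the highest Pearson correlation with it on log2(FPKM + 1) over the 12 libraries, among 32676 other rows that reached 1 FPKM in any library. Their coefficients ran between 0.896 and 0.956, and the next row, *AT-HSFB2B*, a heat shock transcription factor, had 0.888. The 12 points share 4 groups, and a correlation with this gene is in effect the contrast of S2 with the rest. In each of the 8 all S2 libraries lay above all others, which largely follows from choosing them by this correlation and is no separate result. All but *Bo3g003410* reached the 1 FPKM of the filter in S2 libraries only. Of the 8, 6 stayed under 5 FPKM in every S2 library, far below *Bo6g080750*.

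WRKY62, a WRKY transcription factor that in *Arabidopsis* is linked to salicylic acid and defense, had a coefficient of 0.948. It had 1.05, 0.662 and 1.02 FPKM in S2 and at most 0.357 FPKM elsewhere. PDR12, known in *Arabidopsis* as a membrane transporter for abscisic acid, had 1.31, 0.693 and 1.23 FPKM in S2 and at most 0.509 FPKM elsewhere, with a coefficient of 0.904. Both levels are low, and their differences between groups are correspondingly small in FPKM.

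*Bo3g003410* had a coefficient of 0.924, with 2.60, 7.82 and 4.34 FPKM in S2 and at most 1.02 FPKM elsewhere. *Bo3g012270* (0.906) and the arginine decarboxylase gene *Bo7g117010* (0.901) were among the 8 as well as among the rows with the widest gaps. Unlike *Bo6g080750*, *Bo7g117010* was uneven among S2 libraries, with the third at 3.99 FPKM against about 32.0 FPKM in the others. The remaining 3 were the assembled loci MSTRG.22110 (0.956), MSTRG.25110 (0.916) and MSTRG.19038 (0.896), without gene name or description, at 0.550 to 1.33 FPKM in S2.

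**Figure D3:**
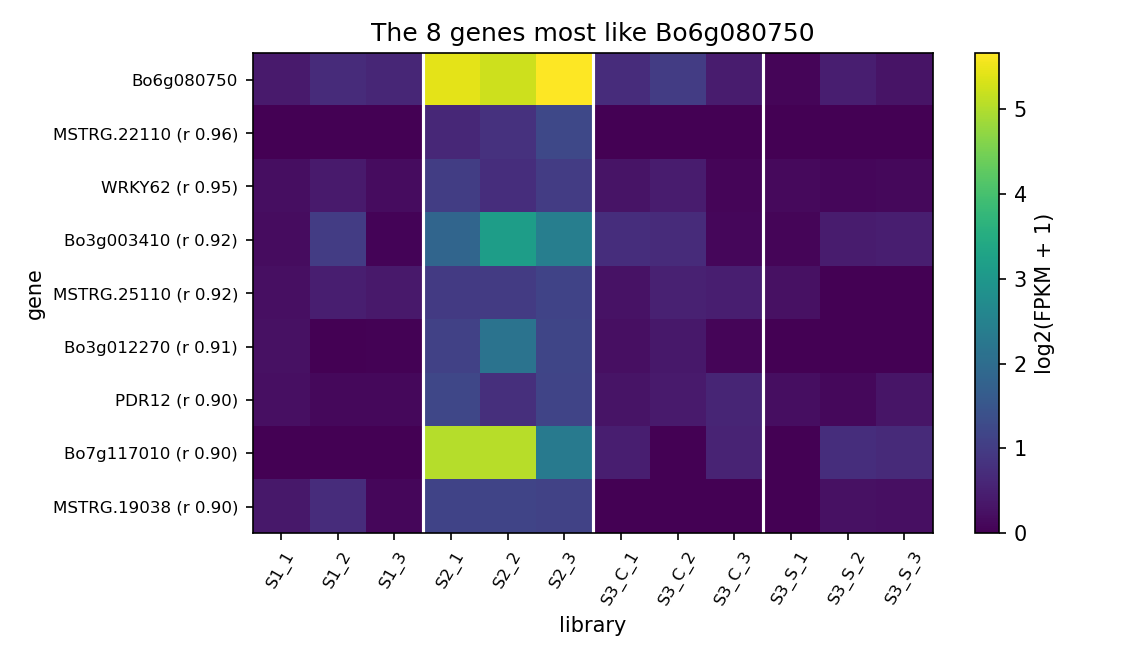
Log2(FPKM + 1) of *Bo6g080750* (top row) and the 8 rows most correlated with it, in the 12 libraries, with white lines between groups and Pearson r beside each name. The S2 columns are the brightest of every row, and only *Bo7g117010* comes near the level of *Bo6g080750*, in the first and second S2 libraries.

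The choice of genes depended on the measure. By Spearman's rank correlation, which also uses the order among the low values, 0 of these 8 were among the top 8. The highest coefficients by rank belonged to *BGAL17* (0.951), a beta-galactosidase, and *Bo3g086710* (0.937). *BGAL17* was at 1.23 to 3.48 FPKM in S1, 3.57 to 4.11 FPKM in S2, 3.28 to 3.55 FPKM in S3_C and 2.10 to 2.76 FPKM in S3_S, without the steep S2 level of *Bo6g080750*.

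Rows with assembler numbers next to that of *Bo6g080750* were looked at because reads of a neighboring gene can be counted in an assembled locus. The table gives no positions, so the distances are not known, and the numbers only follow each other. These rows were chosen after the values were seen, and in none of the 4 did all S2 libraries lie above all others. MSTRG.21724, without gene name, reached 3.26 FPKM in S2 and 3.34 FPKM in S1. *Bo6g080770* reached 2.52 FPKM in S2 and 0.609 FPKM in S1, but S3_C, at 2.35 to 2.88 FPKM, overlapped with S2. The row of *Bo6g080760* that holds its reference transcript was at 8.21 to 10.5 FPKM in S2 and 6.66 to 7.35 FPKM in S1.

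A second row named *Bo6g080760*, which like that of *Bo6g080750* holds an assembled transcript only, varied widely between replicates. It had 9.70, 1.98 and 168 FPKM in S2, against 15.03, 1.24 and 1.83 FPKM in S1. At the variegated leaf stage it had 68.5, 21.4 and 152 FPKM in S3_C and 82.5, 119 and 595 FPKM in S3_S. Its correlation with *Bo6g080750* over the 12 libraries was −0.21.

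**Figure D4:**
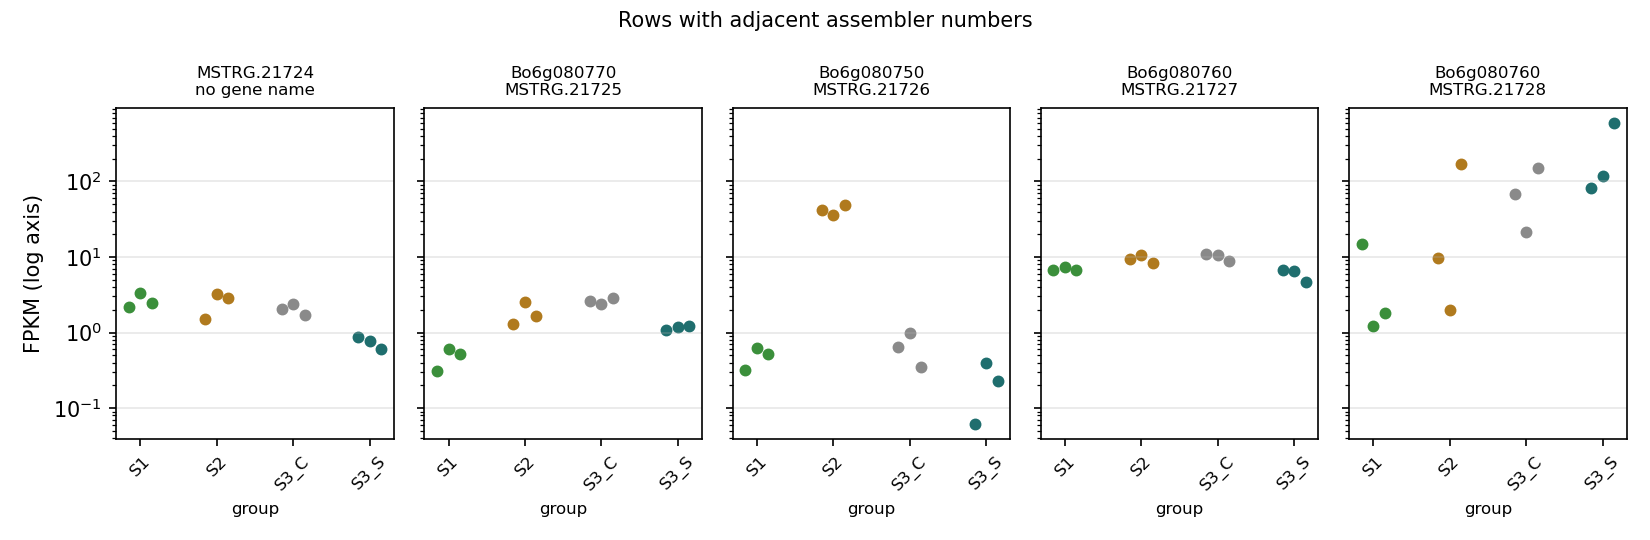
FPKM on a log axis, 1 point per library, of *Bo6g080750* (center) and of the 4 rows whose assembler numbers differ from its own by at most 2. Only *Bo6g080750* has its S2 points, at 36.3 to 49.5 FPKM, apart from all others.

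An empty description is the rule in this table, as 34404 other rows also have none. In limma on log2(FPKM + 1), 2739 of the 32293 of these that were tested were called for S2 over S1, which is 8.48%, against 9.06% of all 42771 genes tested. For S3_S over S1 it was 18.7% against 19.2%, for S3_C over S1 21.3% against 21.8%, and for S3_C over S3_S 7.30% against 7.88%. In each comparison the share without description was slightly below that of all genes. At an adjusted p under 0.05 from limma, 1 of the 42771 genes passed for S2 over S1, and 0 of the 32293 other rows without description. *Bo6g080750* itself is counted among the 42771 genes but not among those 32293 rows. By the same limit 6308 genes passed for S3_S over S1, 12151 for S3_C over S1 and 1598 for S3_C over S3_S. The S2 over S1 calls thus rest on unadjusted p, although 3643 genes passed the limit with all 12 libraries in the fit. Rows closer in kind, the 4386 others that carry a Bo gene name but only assembled transcripts, were called in 10.6% of cases for S2 over S1, 22.7% for S3_S over S1, 26.1% for S3_C over S1 and 9.28% for S3_C over S3_S. These shares depended on the scale. For S2 over S1 the 457 called of 4323 tested became 289 with median-of-ratios scaling and 290 with quantile normalization, where the 3875 of all genes became 2882 and 2797. For S3_C over S1 1133 became 753 and 728, where the 9393 of all genes became 6784 and 6615.

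The direction of calls depended on the scale. For S2 over S1, 3002 of 3875 called genes (77.5%) were higher in S2 when FPKM were left unscaled. The share was 37.9% with median-of-ratios scaling and 39.6% with quantile normalization. The median log2 fold change of all genes in this comparison was 0.21 on the unscaled values, 0.02 with median-of-ratios scaling and 0.0055 with quantile normalization, a shift that is small beside the 4.86 of *Bo6g080750*.

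The 10 rows without description that had the highest mean over all libraries, 1153 to 2803 FPKM, did not share the isolated S2 level of *Bo6g080750*. In none of the 10 did all S2 libraries lie above all others. For S2 over S1 0 of the 10 were called by limma, by the threshold that 9.06% of all genes passed, and 0 had an unadjusted p under 0.05. With 10 rows this cannot be told from the share of all genes. The fit could also miss changes at such levels. MSTRG.34792 had 975 to 2611 FPKM in S2 against 4857 to 12112 FPKM in S1, without overlap. It was not called (log2 fold change −2.03, standard error 5.37, unadjusted p = 0.718 from limma). A row without a call can therefore still have changed. For S3_C over S1 5 were called, 2 higher and 3 lower, where 17.5% of all genes were called higher and 4.31% lower. For S3_S over S1 3 were called, 2 higher and 1 lower, where 12.5% of all genes were called higher and 6.72% lower. For S3_C over S3_S 3 were called, 0 higher and 3 lower, where 5.2% of all genes were called higher and 2.67% lower. *Bo3g027470* showed how far S2 libraries could differ, with 845, 16.1 and 4119 FPKM in S2, against 353, 29.7 and 14.6 FPKM in S1. At the same stage *Bo6g080750* differed by 1.36-fold between its highest and lowest library. Among the 10 rows this spread was widest in *Bo3g027470* and *Bo4g042380*, at 257- and 50.8-fold. It was 1.49-fold in *Bo1g123360* and 1.64-fold in *Bo3g084260*, and 1.24-fold in *Bo8g025780*, a gene annotated to response to cold. Such evenness was therefore not particular to *Bo6g080750*.

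Because the plants had gone through a period of cold before S2, the 56 genes annotated to response to cold were set beside *Bo6g080750*, which is not one of them. For S2 over S1, 10 of the 54 that were tested were called, 3 of them higher and 7 lower in S2, where 7.02% of all genes tested were called higher and 2.04% lower. Its median log2 fold change was 0.07, against 0.21 over all genes tested. The count rested on single libraries, with 17 called and 11 of them higher without the second S2 library, and 6 called without the first. After median-of-ratios scaling 11 were called, of which 1 was higher.

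*COR78*, also known as RD29A, a protein induced by cold and drought, was the most abundant gene of the list that is known for its cold induction. It had 1691, 703 and 970 FPKM in S2, against 1152, 697 and 237 FPKM in S1, with overlapping libraries. It was not called (log2 fold change 0.87, standard error 1.31, adjusted p = 0.707 from limma). In the same S1 libraries *Bo6g080750* was at most 0.632 FPKM. The part of cold in the level of *Bo6g080750* was not tested. *Bo6g067750*, annotated to response to heat and cold, had 204, 69.8 and 229 FPKM in S2, against 122, 66.2 and 44.6 FPKM in S1, and was called higher for S3_C over S1 and for S3_S over S1 but not for S2 over S1.

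The other 4 abundant genes of the cold list act in the chloroplast. *GAPB*, a subunit of the glyceraldehyde-3-phosphate dehydrogenase of the Calvin cycle, had 88.4, 98.9 and 168 FPKM in S2, against 1439, 321 and 469 FPKM in S1, and was called lower in S2 (log2 fold change −2.39, adjusted p = 0.161 from limma). *Bo8g025780*, described as ribosomal protein L21, had 132 to 164 FPKM in S2, against 393 to 442 FPKM in S1, and was also called lower (log2 fold change −1.52, adjusted p = 0.155 from limma). *LHCA4* and *Bo4g101180*, light-harvesting proteins of photosystem I, were not called for S2 over S1. In library 3 of S2 they were at 836 and 756 FPKM, above the other S2 libraries, at 259 and 268 FPKM for *LHCA4* and at 147 and 78.6 FPKM for *Bo4g101180*.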

How the data were processed

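Per the labels and the study's methods, poly(A) RNA was sequenced in pairs on an Illumina HiSeq. The authors removed low-quality reads, aligned the others with HISAT (HISAT2 2.0 in the submitters' processing notes) against *B. oleracea* (Ensembl Plants, release 38; at most 2 mismatches and 20 alignments per read), assembled and merged transcripts with StringTie (1.3.0) and deposited FPKM per gene. Reads with several alignments can be split between copies of a gene. No scaling between libraries is stated, and all 12 columns were used.

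For each comparison, genes listed above 0 in any of its 6 libraries were tested with limma 3.58.1 (trend) in R 4.3.3 on log2(FPKM + 1), a scale that understates changes of low genes. The fit was tested on simulated data only for rows averaging at least 1 FPKM over S1 and S2. That test does not cover levels as low as those of *Bo6g080750* in S3. Python 3.11.15, pandas 2.3.3 and scipy 1.17.1 were used for the rest. Labels do not say whether replicates are separate plants, and the methods call the S3 libraries independent biological replicates, so for S1 and S2 p-values may measure technical spread only.

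FPKM keep no counts. Scaled by relative depth (set by the first S1 library, with 35 to 56 genes at the common step in each of the 11 others), values of *Bo6g080750* were 1.00 to 24.1 times the lowest outside S2 and 661 to 1088 times in S2, not whole multiples, so its fragments could not be counted and no counting interval is given.

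The gene, the lists and the tests were chosen with earlier results of these data known. Named are *Bo6g080750*, the 10 rows without description of highest mean, the 8 rows of highest Pearson correlation and the 6 response to cold genes of highest mean. The rule also took 3841 rows without description whose S1 values lay below all 9 later values, given as this number only. Rows by wide S2 gap, by adjacent number and by rank correlation were added after values were seen. Alternatives were a pseudocount of 0.1, a filter on means under 1 FPKM, a replicate block, scaling by median of ratios or by quantiles, all 12 libraries in the fit and each library left out.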

Additional observations from a re-analysis of the deposited data

How the results depend on the processing

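The S2 level of *Bo6g080750* moved by less than its SD, to 38.1 FPKM after median-of-ratios scaling and 40.3 FPKM after quantile normalization, with 39.1 to 45.7 FPKM when an S2 library was left out. Its call between S3_C and S3_S was the same in all 11 alternatives, and a filter on means under 1 FPKM removed it from the test. A pseudocount of 0.1 raised the genes called to 6950 for S2 over S1, 12761 for S3_S over S1, 14711 for S3_C over S1 and 6803 for S3_C over S3_S (3875, 8136, 9393 and 3358 with 1), and those without description to 5216, 9680, 11319 and 5037 (2739, 5978, 6945 and 2351 with 1). Quantile normalization gave 4624 without description for S3_C over S1. For S2 over S1, leaving out a library gave 2547 (without the third S1) to 5499 (without the second S2) genes called and 1792 to 4042 without description. The share of called genes higher in the first group moved from 65.0% to 47.3% for S3_S over S1, 80.3% to 42.7% for S3_C over S1 and 66.1% to 35.6% for S3_C over S3_S after median-of-ratios scaling.

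With the replicate number as a block, 3557, 7600, 9146 and 3772 genes were called in the 4 comparisons, and *Bo6g080750* stayed uncalled between S3_C and S3_S (log2 fold change 0.43, unadjusted p = 0.0313 and adjusted p = 0.140 from limma), with the higher value in S3_C in all 3 same-numbered pairs. The numbers were not taken as pairs in the main fits. Deviations of same-numbered libraries correlated at −0.36 to 0.18 for S2 and S1, −0.18 to 0.02 for S3_S and S1 and −0.24 to 0.17 for S3_C and S1. For S3_C and S3_S they were all positive, at 0.10 to 0.42, where the lowest was 0.0968, against −0.43 to 0.21 for libraries of different number. Over genes with a mean of 1 FPKM or more, the S3_C and S3_S values were 0.113 to 0.467, against −0.47 to 0.24. The sectors may therefore be paired by number, which was not established, and the block fit is given for that case. The lists of assembled-only and cold genes were added after values were seen. The levels outside S2 are too low for firm ratios.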

Other observations

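Among rows without description, the main row of *Bo4g042380* shared the uneven S2 values of *Bo3g027470*, with 884, 59.0 and 2997 FPKM in S2, against 311, 178 and 87.4 FPKM in S1. At the variegated leaf stage it had 2335, 2094 and 4213 FPKM in S3_C and 1437, 2840 and 3430 FPKM in S3_S, and it was called higher for both sectors over S1. In the second S2 library both genes were near or below their S1 levels, whereas *Bo6g080750* was at 36.3 FPKM there, within 1.36-fold of the other S2 libraries. Both genes had the widest S2 spread among the 10 rows without description of highest mean, and other rows were nearly as even as *Bo6g080750*.

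The row of *Bo3g127600* with a reference transcript had 139, 532 and 1064 FPKM in S2, against 7346, 2840 and 5161 FPKM in S1, and 24.4, 27.0 and 17.9 FPKM in S3_C, against 1321, 215 and 302 FPKM in S3_S. Its S2 libraries lay between those of S3_C and S1, a graded pattern unlike the isolated S2 level of *Bo6g080750*, and it was called lower for S3_C over S1 and for S3_C over S3_S.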
